A study of Mus musculus with 4 samples.

Results

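The 32 genes described here belong to the p53 pathway. They were taken by symbol from a table of 24015 genes, and all 32 were found. RNA-seq read counts came from 4 libraries of mouse hematopoietic stem and progenitor cells (HSPC) purified by flow sorting, 2 labelled control and 2 labelled caNIK. In caNIK mice the Rosa locus carried a loxP-flanked STOP before a mutant of the kinase NIK that TRAF3 cannot target, and Vav-iCre, a Cre line of the blood system, removed the STOP. The labels describe the control mice only as control and do not say which of the Rosa and Cre alleles they carried. Nor do they say which markers were sorted on, how old or how many the mice were, or whether each library came from its own animal. The p-values therefore measure the spread between these libraries, which may be technical.

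p53, encoded by Trp53, is a transcription factor that is held low by the ubiquitin ligase Mdm2 and its relative Mdm4 and is stabilised when DNA is damaged or the cell is stressed. It then activates genes that stop the cell cycle, repair DNA, restrain growth metabolism or start apoptosis, and some of its targets, Mdm2 among them, feed back to shut it off. Its activity is set largely at the protein level, so the amount of its own transcript is a poor guide to it. In blood stem cells p53 is known for keeping cells quiescent and for removing damaged cells.

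Shown are the promoters of 6 of the 12 genes that carry, close to the start of transcription, letters matching the p53 half-site consensus. A p53 binding site is made of a pair of such half-sites. Of the 6, Mdm2, Ccng1, Pml and Gadd45a rose in caNIK, and Trp53 and Ei24 did not pass the test. The promoter of Trp53 also matches a kappaB site consensus, the element read by NF-kB. Each sequence runs 5′ to 3′ from 200 bases before the start to 10 bases after it, from RefSeq on build GRCm38.p6, which is not the mm9 build of the count files. Capitals mark each match to the half-site and, in Trp53, also the kappaB match that spans the start site.
Trp53: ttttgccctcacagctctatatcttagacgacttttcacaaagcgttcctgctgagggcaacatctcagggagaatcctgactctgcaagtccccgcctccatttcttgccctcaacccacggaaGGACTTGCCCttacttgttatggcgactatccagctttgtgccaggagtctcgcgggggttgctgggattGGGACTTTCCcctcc
Mdm2: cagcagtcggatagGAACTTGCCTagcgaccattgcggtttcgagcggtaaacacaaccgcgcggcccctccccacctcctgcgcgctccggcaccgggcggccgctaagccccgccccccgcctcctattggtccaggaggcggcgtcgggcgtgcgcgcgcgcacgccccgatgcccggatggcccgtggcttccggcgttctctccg
Ccng1: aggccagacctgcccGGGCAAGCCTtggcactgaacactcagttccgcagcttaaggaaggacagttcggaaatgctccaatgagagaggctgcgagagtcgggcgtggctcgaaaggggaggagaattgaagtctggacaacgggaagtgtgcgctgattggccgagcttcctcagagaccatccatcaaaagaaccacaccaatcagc
Pml: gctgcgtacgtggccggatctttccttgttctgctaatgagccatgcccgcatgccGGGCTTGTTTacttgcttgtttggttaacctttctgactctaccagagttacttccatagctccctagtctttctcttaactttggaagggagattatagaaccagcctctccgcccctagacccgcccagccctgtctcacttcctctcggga
Gadd45a: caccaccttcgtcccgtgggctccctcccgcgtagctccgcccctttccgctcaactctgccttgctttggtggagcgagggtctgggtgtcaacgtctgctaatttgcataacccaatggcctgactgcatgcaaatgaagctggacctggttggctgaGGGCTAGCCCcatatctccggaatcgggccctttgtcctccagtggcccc
Ei24: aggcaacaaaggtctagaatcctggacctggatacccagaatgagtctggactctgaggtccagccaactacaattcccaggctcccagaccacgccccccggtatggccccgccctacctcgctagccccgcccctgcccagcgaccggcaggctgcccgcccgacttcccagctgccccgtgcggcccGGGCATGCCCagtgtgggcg
The windows lie at chr11:69580159-69580368 (plus strand), chr10:117710749-117710958 (minus strand), chr11:40755277-40755486 (minus strand), chr9:58249777-58249986 (minus strand), chr6:67037398-67037607 (minus strand) and chr9:36797325-36797534 (minus strand), in the order shown. In Trp53 the first match in capitals is the half-site and the second is the kappaB site.

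RefSeq promoters of 300 bases were matched for 26 of the 32 genes, some with more than 1 start, giving 33 windows. A p53 half-site, searched on both strands, was in 13 of the 33 windows (39.4%), against 2745 of 32851 windows of all genes (8.36%). The windows of Aen overlap and share the same half-site, which is counted in each. By gene, 12 of 26 held one. They were Trp53, Mdm2, Ppm1d, Rchy1, Ccng1, Pml, Polk, Sesn1, Gadd45a, Gtse1, Aen and Ei24. Many of the genes were listed because they are known p53 targets, so this share describes the list. The half-site did not single out the genes that rose: it was in 5 of 13 genes that rose and in 7 of 13 that did not pass the test. A full site was counted only where a pair of half-sites, each matching the consensus at every letter, had at most 13 bases between them. By that rule it was in none of the 33 windows and in 24 of all 32851. Pairs with a mismatched letter were not searched for. In Ccng1 the bases directly before the marked half-site come close to a second one. The best studied p53 sites of Mdm2 and Gadd45a lie in introns, outside such windows. The kappaB consensus was in windows of Gtse1, Trp53 and Trp53i11 (4.51% of all windows). These matches are descriptions of letters and say nothing of binding in these cells.

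In caNIK HSPC about as many of the p53 genes rose as did not pass the test, and only Xpc fell. The rises were in inhibitors and modulators of p53 (Mdm2, Mdm4, Ccng1, Pml), in arrest and stress genes (Gadd45a, Btg2, Ddit4, Trp53inp1) and in genes of death and survival signalling (Zmat3, Phlda3, Eda2r, Apaf1). The transcript of p53 itself did not pass.

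In edgeR's quasi-likelihood test 15 of the 32 genes rose, 1 fell and 16 missed the threshold, a Benjamini-Hochberg adjusted p under 0.05. Over all 14191 genes tested, 22% passed, 13.8% as higher and 8.21% as lower. The median log2 fold change, caNIK against control, was 0.90 over the 32 genes and 0.00 over all genes tested. Of the 15 that rose, 13 did so by 2-fold or more, and Mdm2 and Mdm4 by less. Levels are CPM, that is counts brought to the same library size, with factors from the trimmed mean of M values (TMM). In 23 genes both caNIK libraries lay above both control libraries, in 3 both lay below, and in 6 the groups overlapped, with 33.3% of all tested genes above and 31.6% below by the same rule. Summed over the 32 genes, levels were 1546 and 1492 CPM in control replicates 1 and 2 and 2345 and 2631 CPM in caNIK replicates 1 and 2. All 32 genes passed the filter on low counts, Trp73 and Lif only through their counts in the caNIK libraries.

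**Figure D1:**
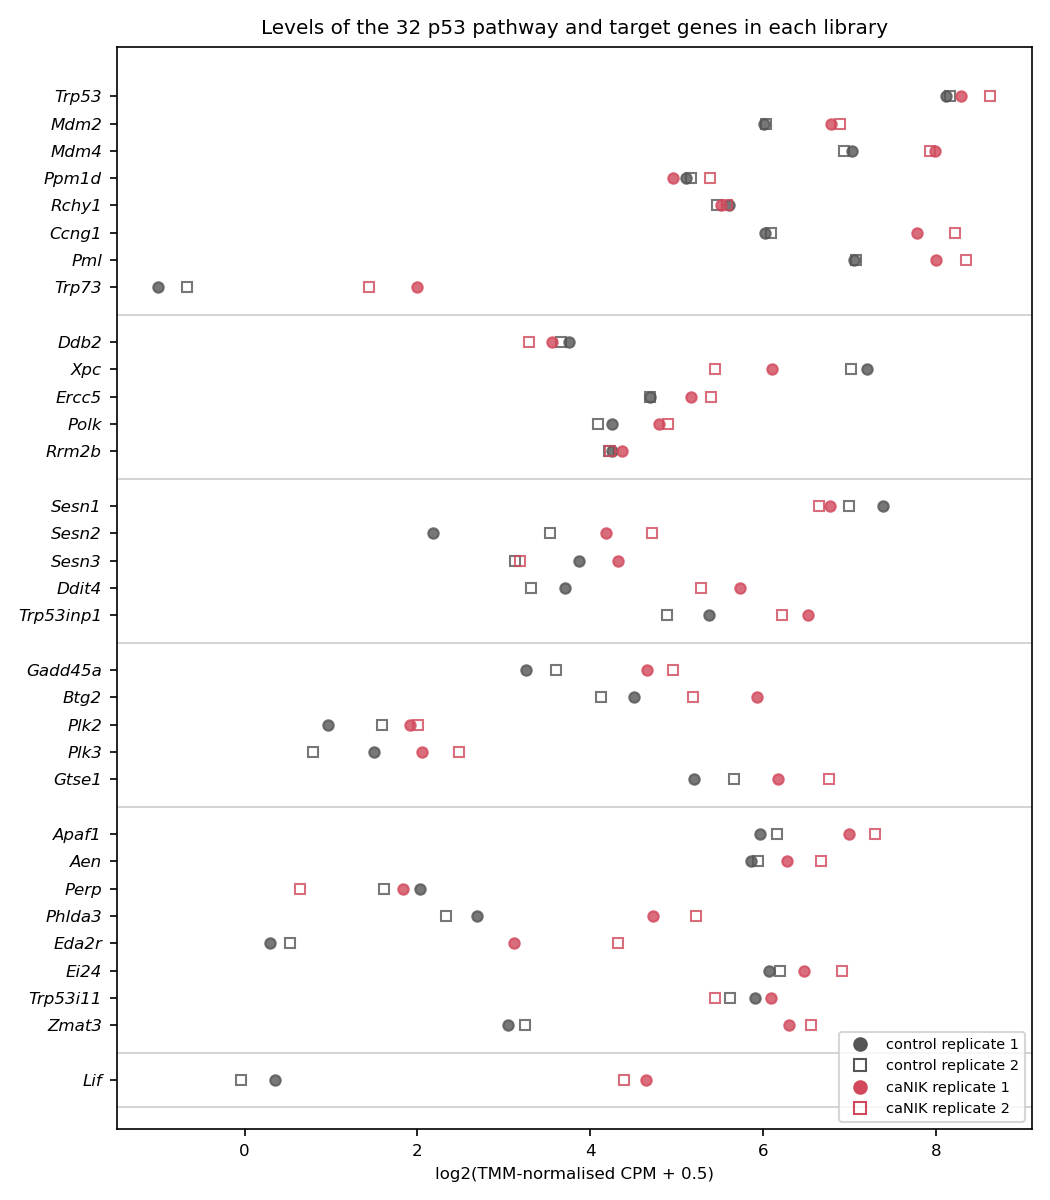
Levels of the 32 genes on the log2(CPM + 0.5) scale, 1 row a gene, ordered by role, with control libraries in grey and caNIK libraries in red (circle replicate 1, square replicate 2). Zmat3, Phlda3, Eda2r and Lif show both red points far to the right of both grey points, and Xpc shows them to the left.

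Libraries held 18574452 to 23162766 counts. Map3k14, which encodes NIK, lay at 30.2 and 25.1 CPM in the control libraries and at 177 and 192 CPM in the caNIK libraries, in the direction of the labels. Stem and progenitor markers were checked against the label. Kit was at 610 and 613 CPM in control and 558 and 506 CPM in caNIK, whereas Cd34, at 793 and 642 CPM in control, was at 143 and 84.1 CPM in caNIK. Of 10 such markers 4 were lower and 1 higher, and their summed level was 2278 to 2635 CPM in control and 802 to 1106 CPM in caNIK. Markers of other cells also moved. Of 10 erythroid markers 6 were higher (summed 396 to 939 against 1785 to 2974 CPM), and of 8 mast cell markers 7 (165 to 266 against 1262 to 2420 CPM). Megakaryocyte markers had 3 higher and 1 lower of 7 tested (95.3 to 191 against 449 to 570 CPM). Granulocyte and monocyte markers had 4 higher and 3 lower of 10 (1283 to 3157 against 352 to 466 CPM). Most of the control sum was Mpo, at 1038 and 2503 CPM in control and 61.3 and 66.0 CPM in caNIK. Markers of dendritic cells and macrophages had 3 higher and 1 lower of 8 (510 to 618 against 133 to 203 CPM). The fall in that sum was that of Flt3, the 1 lower, which is also in the stem and progenitor list. Flt3 was at 593 and 472 CPM in control and 113 and 58.3 CPM in caNIK, and the other 7 had log2 fold changes above 0. Of 8 B cell markers 4 were lower (64.2 to 95.7 against 48.3 to 73.7 CPM). Endothelial and stromal markers had 1 lower of 9 (170 to 290 against 198 to 311 CPM). Of 8 T and NK markers, 0 passed in edgeR's test or limma-voom and 2 in DESeq2, with 2 at an unadjusted p under 0.05 (86.0 to 142 against 76.2 to 199 CPM). Of 6 thymic epithelial markers 3 were tested and Aire was higher, while Krt5 and Krt14 were at 0 in all 4 libraries (summed 13.7 to 73.0 against 531 to 764 CPM, nearly all of the latter Aire). In such bulk samples, a change in the mix of cells and a change in RNA per cell cannot be told apart. The part of these marker shifts in the results below was not tested.

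Trp53 transcripts did not pass the test. They lay at 278 and 285 CPM in control replicates 1 and 2 and at 313 and 395 CPM in caNIK replicates 1 and 2. Both caNIK libraries were above both controls, but replicate 2 far more than replicate 1. The log2 fold change was 0.33 ± 0.16 (SE; edgeR adjusted p = 0.20). Without caNIK replicate 1 it was 0.49 and passed (adjusted p = 0.036).

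Mdm2 and Mdm4, which restrain p53 by binding it, both rose. Mdm2, the ubiquitin ligase that sends p53 to the proteasome and is itself a p53 target, lay at 64.1 and 65.2 CPM in control and at 109 and 118 CPM in caNIK. The control pair was close together and both caNIK libraries stood clear of it. Its log2 fold change was 0.81 ± 0.15 (edgeR adjusted p = 0.010), and without control replicate 1 it did not pass (0.78; adjusted p = 0.063). Mdm4, which covers the activation domain of p53 and pairs with Mdm2, lay at 129.9 and 122 CPM in control and 254 and 242 CPM in caNIK. Here both groups were tight, with a change of 0.98 ± 0.14 (edgeR adjusted p = 0.0046). Ccng1, cyclin G1, a p53 target that recruits a phosphatase to Mdm2, showed a wider gap. It lay at 64.3 and 67.5 CPM in control and 219 and 297 CPM in caNIK, a log2 fold change of 1.97 ± 0.19 or 3.91-fold (edgeR adjusted p = 0.0010).

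Ppm1d and Rchy1, which also restrain p53, did not pass. Ppm1d, the phosphatase Wip1 that reverses damage signalling, lay at 33.9 and 35.4 CPM in control and on either side of them, at 30.7 and 41.2 CPM, in caNIK. Rchy1, the p53 ubiquitin ligase Pirh2, lay at 48.1 and 43.5 CPM in control and at 45.1 and 47.3 CPM in caNIK. On the log2 scale they differed by 0.05 ± 0.21 and 0.01 ± 0.16 (adjusted p by edgeR 0.88 and 0.97), which leaves room for modest changes in either direction. In GENCODE M21, 18% of the exonic bases of Rchy1 overlap Thap6 on the opposite strand, and no source here gives the strand setting of the counting, but Thap6 differed as little (log2 fold change 0.00 ± 0.27).

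Pml and Trp73 also rose. Pml scaffolds the nuclear bodies where p53 is modified and is a known interferon-response gene. It was at 132 and 134 CPM in control and 256 and 325 CPM in caNIK, a log2 fold change of 1.13 ± 0.17 (edgeR adjusted p = 0.0050). In the list of 18 other interferon response genes, 15 rose, with a median of 1.90. Oasl2 rose by 2.53 ± 0.18 and Irf7 by 2.82 ± 0.22. The change of Pml thus lay below the median of those genes.

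Trp73, the p53 relative p73, was all but absent from control cells. It was counted 0 and 3 times in control and 65 and 46 times in caNIK, where it reached 3.49 and 2.22 CPM. The ratio of normalised counts was 40.2 with an exact 95% interval of 13.4 to 198, which covers counting error only. It passed (edgeR adjusted p = 0.015) but did not without caNIK replicate 1 (adjusted p = 0.064). The list of p53 relatives and partners held a second case. Trp63, encoding p63, had 1 control count and 234 and 81 caNIK counts, a ratio of 342 (interval 61.0 to 13555). Like Trp73, it passed the filter on low counts only through the caNIK libraries. Its interval also covers counting error only, not the gap between the caNIK libraries. In that list of 5, Trp53inp2 also rose (1.60 ± 0.44) and Ppp1r13l, which encodes the p53 inhibitor iASPP, fell by 1.43 ± 0.36 on the log2 scale.

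Upstream of p53 most transcripts did not pass. Among 13 damage sensors and p53 activators, such as the kinases Atm, Atr, Chek1 and Chek2, 2 rose and 11 did not pass (median -0.01 on the log2 scale). The 2 were Cdkn2a and Hipk2. Cdkn2a encodes both the CDK inhibitor p16 and ARF, which blocks Mdm2, and gene counts do not separate them. Cdkn2a was counted only 6 and 3 times in control and passed the filter on low counts only through the caNIK libraries. It lay at 0.311 and 0.128 CPM in control and 25.0 and 23.4 CPM in caNIK, a change of 6.79 ± 0.46 (edgeR adjusted p = 0.00030). Hipk2, a kinase that phosphorylates p53, rose by 1.02 ± 0.21 (adjusted p = 0.016). Of 8 tested deubiquitinases, deacetylases and further ligases of p53, 2 rose: Rfwd2, the ligase COP1, by 1.36 ± 0.20 and the deacetylase Sirt1 by 0.78 ± 0.16 (edgeR adjusted p = 0.0048 and 0.015).

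**Figure D2:**
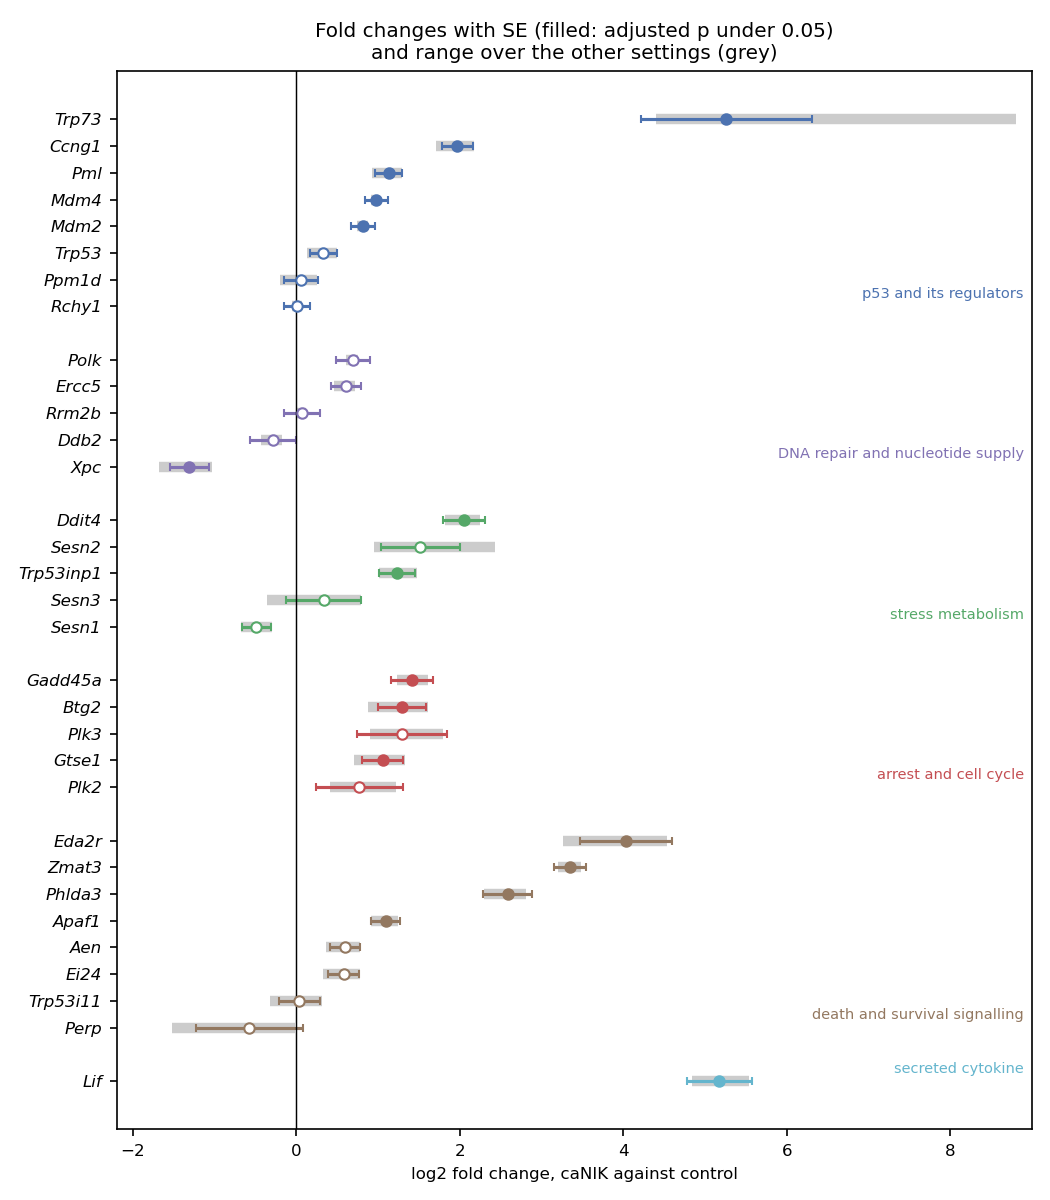
Log2 fold changes of the 32 genes, caNIK against control, by role; points with SE bars are edgeR's values, filled where the adjusted p is under 0.05, and grey bars span the values under the other settings tried. Filled points lie right of 0 except Xpc (-1.31), and the widest grey bar is that of Trp73.

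Of the 5 DNA repair and nucleotide supply genes, 1 fell and 4 did not pass. Xpc, which recognises distorted DNA and starts global nucleotide excision repair, was the one gene of the 32 that fell. It lay at 147 and 129 CPM in control and at 68.1 and 43.0 CPM in caNIK. The caNIK libraries differed from each other, yet both were well under the lower control. The level was 2.48-fold lower, a log2 fold change of -1.31 ± 0.24 (edgeR adjusted p = 0.011), and it passed in all 14 alternatives.

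Ddb2, which works with Xpc to find ultraviolet damage, was at 12.97 and 12.2 CPM in control and 11.3 and 9.30 CPM in caNIK. That is a small difference in the same direction, -0.29 ± 0.28, which did not pass (edgeR adjusted p = 0.52). Of its exonic bases, 23.8% overlap Acp2 on the opposite strand, for which the difference had the other sign (0.66 ± 0.21, not past). Ercc5 and Polk, by contrast, were at higher levels in both caNIK libraries without passing. Ercc5, the nuclease XPG that cuts beside the damage, was at 25.4 and 25.3 CPM in control and 35.4 and 41.7 CPM in caNIK (0.61 ± 0.19; edgeR adjusted p = 0.063). Polk, a polymerase that copies past damaged bases, was at 18.5 and 16.5 CPM in control and 27.2 and 29.3 CPM in caNIK (0.69 ± 0.21; adjusted p = 0.058). Neither passed here, though their groups did not overlap, and both passed in DESeq2 (adjusted p = 0.044 and 0.033).

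Rrm2b, the p53-inducible subunit of ribonucleotide reductase that supplies nucleotides for repair, differed little. It lay at 18.5 and 18.1 CPM in control and 20.1 and 18.3 CPM in caNIK (0.07 ± 0.22; edgeR adjusted p = 0.86). In the repair group as a whole 3 of 5 had an unadjusted p under 0.05, in both directions, as had 5076 of all 14191 genes tested. The partners of these genes gave few calls. Of 13 further nucleotide excision repair genes 0 passed in edgeR and limma-voom and 1 in DESeq2, and the median was 0.07. The 2 at an unadjusted p under 0.05, Ercc8 (-0.77 ± 0.24) and Ercc2 (-0.48 ± 0.18), named after their values were seen, had the sign of Xpc. Of 8 genes of ribonucleotide reductase and translesion polymerases 0 passed in any of the 3 tools, with 0 at an unadjusted p under 0.05 and a median of -0.06.

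Among the stress metabolism genes, Ddit4 and Trp53inp1 rose, and the 3 sestrins did not pass and differed in sign. Ddit4, also called REDD1, restrains the growth kinase complex mTORC1 through the TSC proteins and answers to hypoxia and glucocorticoids as well as p53. It was at 12.6 and 9.42 CPM in control and 52.5 and 38.5 CPM in caNIK. The log2 fold change was 2.05 ± 0.26, or 4.14-fold (edgeR adjusted p = 0.0027). Trp53inp1, a stress protein that joins p53 in nuclear bodies and takes part in autophagy, was at 41.1 and 29.2 CPM in control and 91.0 and 73.9 CPM in caNIK (1.23 ± 0.22; adjusted p = 0.0098). In both genes replicate 1 was above replicate 2 in both groups, by less than the distance between the groups.

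The sestrins are a family of leucine-sensing and antioxidant proteins that hold back mTORC1 through the GATOR2 complex. Sesn1 was at 167 and 126 CPM in control and 109 and 99.8 CPM in caNIK, a log2 fold change of -0.49 ± 0.18 (edgeR adjusted p = 0.10). Sesn2 differed in the other direction, at 4.05 and 11.1 CPM in control and 17.6 and 25.8 CPM in caNIK (1.52 ± 0.49; adjusted p = 0.070). Its control libraries differed from each other by 1.45 on the log2 scale. Without control replicate 2 its change was 2.42 and passed (adjusted p = 0.00020), and without the other control library it did not. It also passed with all libraries in DESeq2 and limma-voom (adjusted p = 0.014 and 0.045). Sesn3 was at 14.1 and 8.22 CPM in control and 19.5 and 8.63 CPM in caNIK, with replicate 1 high and replicate 2 low in each group (0.33 ± 0.46; adjusted p = 0.66). Of 18 genes around mTORC1 with which sestrins and Ddit4 work, 3 rose and 15 did not pass, with a median of 0.02. They were Wdr59 of GATOR2 (0.77 ± 0.16), Nprl3 of GATOR1 (0.88 ± 0.19) and the autophagy receptor Sqstm1 (0.71 ± 0.16).

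Of the arrest and cell cycle genes, 3 of 5 rose, and in all 5 both caNIK libraries lay above both controls. Over all genes tested the shares were 13.8% and 33.3%. Gadd45a, a stress protein that inhibits the mitotic kinase complex of CDK1 and cyclin B and takes part in DNA repair, was at 9.08 and 11.6 CPM in control and 24.7 and 30.6 CPM in caNIK. The log2 fold change was 1.41 ± 0.26 (edgeR adjusted p = 0.011). Of its exonic bases, 19.1% overlap E230016M11Rik on the opposite strand, which stayed under 1 CPM in all 4 libraries. Both relatives of Gadd45a rose too: Gadd45b by 2.02 ± 0.31 and Gadd45g by 3.15 ± 0.33 (adjusted p = 0.0055 and 0.0013). In that list of 7 tested Polo-like, Gadd45 and Btg relatives these were the 2 that passed.

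Btg2, an antiproliferative protein that promotes mRNA deadenylation, was at 22.2 and 17.0 CPM in control and 60.4 and 35.9 CPM in caNIK. The caNIK libraries were far apart, and the lower still exceeded both controls. Its change of 1.30 ± 0.29 passed (edgeR adjusted p = 0.023), but not without caNIK replicate 1 (0.88; adjusted p = 0.056). Plk2 and Plk3 are stress-responsive kinases of the Polo family. Plk2 was at 1.45 and 2.51 CPM in control and 3.28 and 3.52 CPM in caNIK (0.77 ± 0.53; adjusted p = 0.35). Plk3 was at 2.33 and 1.24 CPM in control and 3.65 and 5.06 CPM in caNIK (1.29 ± 0.55; adjusted p = 0.14). At 28 to 105 counts a library, a change of about this size in these 2 genes was not detectable.

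Btg2, Plk2, Plk3 and Gadd45a are also induced when cells are handled or stimulated. Of 13 tested immediate early and handling stress genes, 2 rose, Junb (2.05 ± 0.24) and Ier3 (1.42 ± 0.22), and the median was -0.04. The summed level of that list was 196 and 544 CPM in control replicates 1 and 2 and 417 and 378 CPM in caNIK replicates 1 and 2. The part of handling in the values of those 4 genes was not tested.

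Gtse1, a protein of G2 and mitosis that binds p53 and carries it out of the nucleus, was at 36.3 and 49.98 CPM in control and 71.4 and 108 CPM in caNIK. Its log2 fold change was 1.05 ± 0.25 (edgeR adjusted p = 0.028). It did not pass without control replicate 1 (0.82; adjusted p = 0.063) or without caNIK replicate 2 (0.71; adjusted p = 0.093). Its order over the libraries was that of the summed level of 20 other G2 and mitosis genes. The sum was 4237 and 4516 CPM in control and 4681 and 6745 CPM in caNIK. That order of the sum rested on Mki67, at 894 and 987 CPM in control and 1556.5 and 2373 CPM in caNIK. In 14 of the 20 genes the groups overlapped, in 3 both caNIK libraries lay above both controls and in 3 below. Of those 20, Mki67 passed (1.06 ± 0.22) and 19 did not, and their median was 0.08. The part of cell cycle differences in the value of Gtse1 was not tested.

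Genes of death and survival signalling held some of the larger rises, in Zmat3, Phlda3 and Eda2r. Zmat3, an RNA-binding p53 target that controls splicing, had the smallest p of the 32 genes. It was at 7.78 and 8.99 CPM in control and 78.0 and 93.3 CPM in caNIK. Replicates were close in each group against a 10.2-fold difference (3.35 ± 0.20; edgeR adjusted p = 0.00020).

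Phlda3, which competes with the kinase AKT for membrane lipids and so weakens survival signalling, was at 5.96 and 4.52 CPM in control and 26.0 and 36.7 CPM in caNIK. That is 5.997-fold (2.58 ± 0.30; edgeR adjusted p = 0.0020). Eda2r, a receptor of the TNF receptor family that binds ectodysplasin A2, was at 0.726 and 0.937 CPM in control and 8.16 and 19.4 CPM in caNIK. With 14 and 22 control counts it was barely detected there, and the caNIK libraries differed by 1.25 on the log2 scale. The change was 4.04 ± 0.56, or 16.4-fold (adjusted p = 0.0040). Apaf1, the scaffold of the apoptosome that activates caspase-9, was at 61.8 and 71.2 CPM in control and 127 and 156 CPM in caNIK (1.09 ± 0.17; adjusted p = 0.0068). Its partners gave no calls in edgeR, limma-voom or DESeq2: of 6, among them Cycs and Casp9, 0 passed, 1 had an unadjusted p under 0.05, and the median was 0.05.

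The other 4 genes of this group did not pass. Aen, a nuclease that digests DNA and RNA in apoptosis, was at 57.6 and 60.9 CPM in control and 77.1 and 101 CPM in caNIK (0.59 ± 0.18; edgeR adjusted p = 0.061). Ei24, a membrane protein of the endoplasmic reticulum, was at 66.5 and 72.7 CPM in control and 88.6 and 119.5 CPM in caNIK (0.58 ± 0.19; adjusted p = 0.073). In both, the groups did not overlap, and both passed without caNIK replicate 1 (adjusted p = 0.020 and 0.019) and in DESeq2 (0.033 and 0.040). Trp53i11 was at 59.3 and 48.5 CPM in control and 67.7 and 43.0 CPM in caNIK, with the caNIK libraries on either side of the controls (0.04 ± 0.25; adjusted p = 0.93). Perp, a desmosome component and p53 target of epithelia, was low throughout, at 3.58 and 2.56 CPM in control and 3.06 and 1.06 CPM in caNIK (-0.58 ± 0.65; adjusted p = 0.58). Its counts of 22 to 69 a library limit what could be seen.

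Lif, a cytokine of the interleukin-6 family that p53 and inflammatory signals can induce, is the one secreted member. The control libraries held 15 and 11 of its reads and the caNIK libraries 455 and 424, which is 0.778 and 0.469 CPM against 24.4 and 20.4 CPM. All caNIK values were far above the controls, by 36.1-fold (5.17 ± 0.40; edgeR adjusted p = 0.00047). As with Trp73, Lif entered the test only because its caNIK counts passed the filter on low counts.

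**Figure D3:**
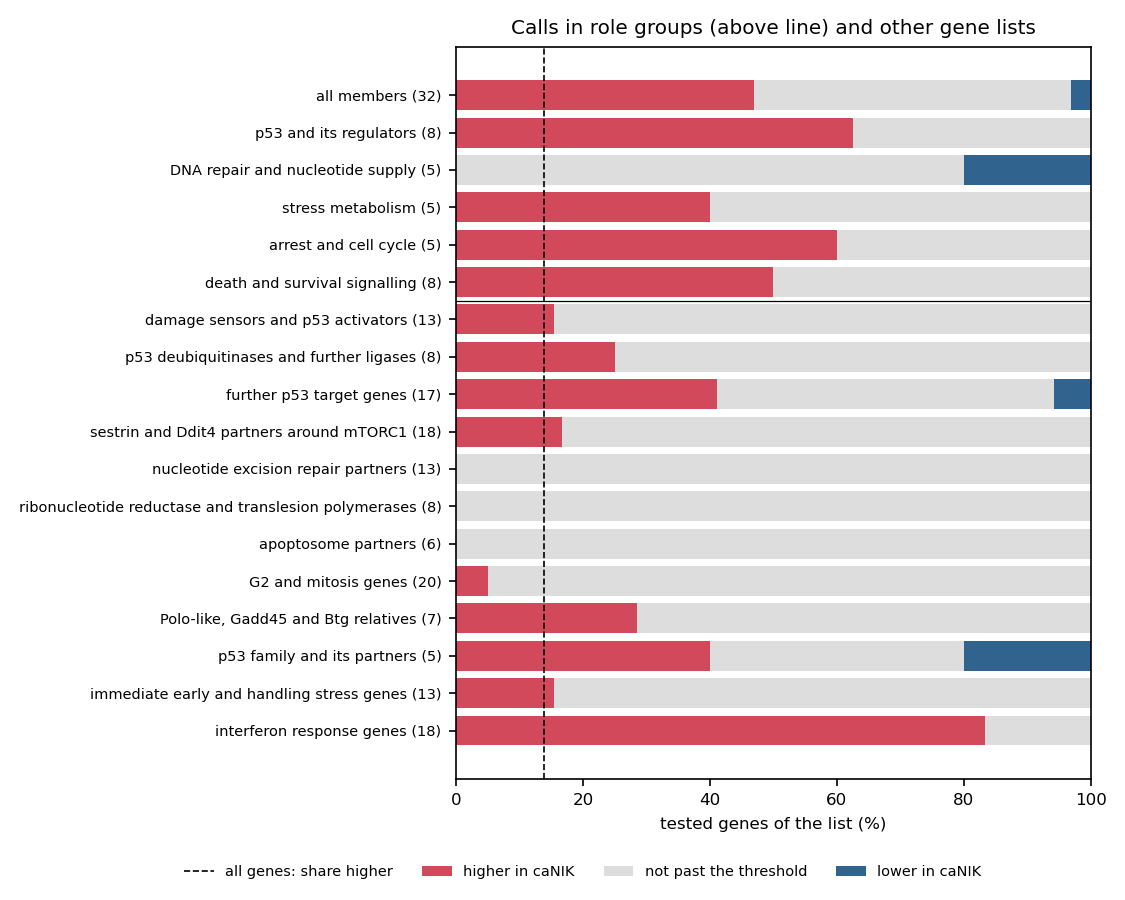
Share of tested genes that were higher (red), lower (blue) or not past the threshold (grey) in the whole list of 32 genes and its role groups (above the line, Lif alone left out) and in the other gene lists (below it); the number tested is in brackets and the dashed line is the share of all genes that were higher (13.8%). The repair group and its partner lists hold no red, while the interferon list is mostly red.

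Further p53 target genes, not among the 32, also held more rises than falls. Of 17 tested, 7 rose, 1 fell and 9 did not pass, with a median of 0.38. The 3 with the smallest p were Pmaip1, encoding the death protein Noxa (5.32 ± 0.24), the death receptor Fas (5.73 ± 0.33) and the tetraspanin Cd82 (2.13 ± 0.17). Cdkn1a, the CDK inhibitor p21 and chief arrest target of p53, was named after its values were seen. It lay at 19.1 and 11.9 CPM in control and 64.5 and 82.7 CPM in caNIK (2.25 ± 0.27; edgeR adjusted p = 0.0023). The gene that fell was Fdxr, a mitochondrial reductase and p53 target, from 33.0 and 32.6 CPM to 19.5 and 19.3 CPM (-0.76 ± 0.19; adjusted p = 0.033). Several of the genes that rose, such as Fas, are also known NF-kB or interferon targets.

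The libraries of a group also differed from each other. Among p53 and its regulators the control pair was close, within 0.15 on the log2 scale in each gene but Trp73. In caNIK replicate 2 lay above replicate 1 by 0.34 in Trp53 and Pml, 0.43 in Ppm1d and 0.44 in Ccng1. The caNIK pair was closer in Mdm2 (0.11) and Rchy1 (0.07), and in Mdm4 replicate 2 was the lower (-0.07). Ddit4, Trp53inp1, Btg2, Sesn3 and Xpc were instead higher in replicate 1 of both groups. For Ddit4 the log2 ratio of replicate 2 to replicate 1 was -0.41 in control and -0.45 in caNIK. Sesn1, Lif, Trp53i11, Perp, Ddb2, Rrm2b and Mdm4 were also higher in replicate 1 of both groups, some of them by little. Among genes counted in all 4 libraries, the widest gaps within a group were in Perp (caNIK), Sesn2 (control), Eda2r (caNIK) and Sesn3 (caNIK).

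**Figure D4:**
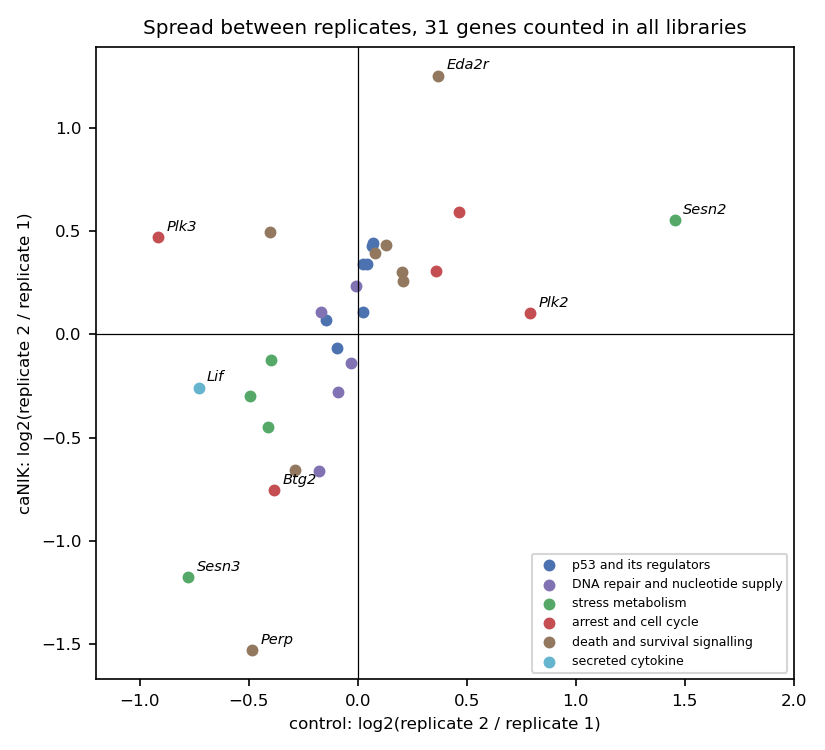
Log2 ratio of replicate 2 to replicate 1 in control (horizontal axis) and in caNIK (vertical axis), 1 point a gene coloured by role, for the 31 genes counted in all 4 libraries. Genes of p53 and its regulators sit near 0 in control, and Sesn2 (1.45, control) and Perp (-1.53, caNIK) lie at the edges.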

How the data were processed

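Per the labels, total RNA came from column-extracted sorted cells, and libraries followed an Illumina procedure. The authors deposited whole-number read counts per gene symbol, not normalised, per the file headers. Build mm9 and the tools TopHat2 2.1.0, featureCounts 1.5.0, FastQC and DESeq2 1.10.1 stand in the submitters' processing notes. The annotation, the strand setting and the treatment of multi-mapped reads stand in none of the sources used here. Reads of overlapping genes cannot be separated. Exon overlaps were read from GENCODE M21.

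The count tables were fitted with edgeR 4.0.16 (R 4.3.3): filterByExpr, TMM factors, and a quasi-likelihood F test (glmQLFit, glmQLFTest; two-sided) on all 4 libraries with group as the only term. P-values were adjusted over 14191 genes. SE was taken from the F statistic. The scripts were tested on simulated data. Alternatives used DESeq2 1.42.0, limma-voom 3.58.1, other scalings and filters, a replicate block, a fold-change threshold of 1.5 (glmTreat) and each library left out.

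The 32 genes, their roles and the other lists were chosen with earlier results of these data known. Every one of the 32 is described; of each other list the 3 smallest p in each direction among genes that passed are named, except 1 gene that is not reported here.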

Additional observations from a re-analysis of the deposited data

How the results depend on the processing

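Of the 32 genes, 12 to 20 were higher over all 14 alternatives, against 15, and 1 was lower in each but the replicate block. In the left-out-library fits 13 to 17 were higher and 1 was lower. The replicate numbers are shared between the groups, but no label says that they mark a shared animal or batch. The deviations of same-numbered libraries correlated at 0.25 across all genes tested and at 0.52 across the genes of the p53 list (Pearson, genes not being independent). With the replicate block, 20 of the genes were higher and 2 lower (Xpc and Sesn1), and over all genes 2494 were higher and 1766 lower, against 1964 and 1165. Against a fold change of 1.5 (glmTreat), 458 genes were lower. With 1 library left out, 1655 to 1968 genes were higher and 858 to 1387 lower, the remaining library of a group being assumed to vary like the other group.

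Changes of sign were limited to 4 genes that did not pass under any setting. Of these, Ppm1d, Rchy1 and Trp53i11 lay near 0, and Sesn3 was at 0.33 ± 0.46. With upper-quartile factors the log2 fold changes were -0.017 (Ppm1d), -0.059 (Rchy1) and -0.029 (Trp53i11), and with library totals -0.020, -0.058 and -0.023. With at least 1 CPM in 2 libraries Rchy1 was at -0.0014. Leaving out 1 library gave -0.20 to 0.25 for Ppm1d, -0.059 to 0.065 for Rchy1, -0.37 to 0.79 for Sesn3 and -0.32 to 0.31 for Trp53i11. The cause was not tested. Over the 444 values of single genes, 401 kept direction and side of the threshold, 21 passed only in the alternative, 8 no longer passed and 14 changed sign. Trp73, Plk2, Plk3 and Perp gave no value with a filter of 5 CPM in 2 libraries. Low counts limit the precision for Trp73, Plk2, Plk3, Perp, Eda2r and Lif.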
